A study of Mus musculus with 13 samples.

Results

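Nonhomologous end joining (NHEJ) is described here through 10 genes: Xrcc6, Xrcc5, Prkdc, Dclre1c, Polm, Poll, Xrcc4, Lig4, Nhej1 and Paxx. The list was set by the roles of the genes in the pathway and not by a threshold on their values, with earlier results of these data known, and makes up 10 of the 57010 genes counted. RNA-Seq was done on mouse embryonic fibroblasts (MEFs), primary cells grown out of mid-gestation wild-type embryos from which the viscera had been removed. Control MEFs were neither made senescent nor given fucoidan. The other 3 groups were exposed to etoposide at 2 μM to induce senescence, and were then left untreated (senescent MEFs) or given Fucoidan-FV, a sulfated sugar polymer from the seaweed Fucus vesiculosus, for 12 h at a dose of 100 or 300 μg/mL. Every group comprised mice 4, 5 and 6. Control mouse 5 was sequenced as libraries 5(1) and 5(2), so that 13 libraries cover 3 mice per group, and the counts of these 2 libraries were summed. Nothing states whether the libraries of a mouse number came from separate cultures of 1 embryo, and the p-values measure the spread between these samples.

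NHEJ reseals DNA double-strand breaks without a template. Ku, a ring of the products of Xrcc6 (Ku70) and Xrcc5 (Ku80), threads onto a broken end and recruits the kinase DNA-PKcs (Prkdc), which holds the ends and activates the nuclease Artemis (Dclre1c). The polymerases μ (Polm) and λ (Poll) fill gaps, and DNA ligase IV (Lig4) seals the strands in a complex with XRCC4 (Xrcc4), helped by XLF (Nhej1) and PAXX (Paxx). Etoposide traps topoisomerase II on cut DNA, and breaks of this kind are a substrate of the pathway in cells outside S phase.

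Expression is given as CPM (counts per 1000000 counts), which is the expected count per gene divided by the library total after TMM scaling. It compares a gene between samples, whereas TPM, the corresponding measure for transcripts, which also divides by length, was used to compare genes with each other. A gene was called where edgeR's quasi-likelihood test gave a Benjamini-Hochberg adjusted p under 0.05 over the 15034 genes tested, and all 10 NHEJ genes were tested. A DEG also had an absolute log2 fold change over 1. Libraries held 22782536 to 31278750 counts. All 9 fibroblast markers were tested, with a summed level of 31846 to 53789 CPM over the samples. Fn1 held most of this sum, at group means of 25338 to 34506 CPM. Dcn was called higher in senescence (also in 26 of 26 alternative fits) and Col1a2 lower (16 of 26). Against senescent MEFs, Col3a1 (22 of 26) and Dcn (8 of 26) were called higher and Vim (16 of 26) lower at 100 μg/mL. At 300 μg/mL Col3a1 was called higher (13 of 26). The 5 leukocyte markers summed to 0.564 to 4.04 CPM in controls, 2.81 to 12.8 CPM in senescent MEFs, 5.92 to 12.8 CPM at 100 μg/mL and 3.26 to 10.1 CPM at 300 μg/mL. All 5 had a higher fitted level in senescent MEFs than in controls (median 2.09), where 0 were called by edgeR or DESeq2 and 2 had an unadjusted p under 0.05, and Lyz2 was called higher against controls at both doses. The 4 endothelial markers summed to 0.188 to 1.91 CPM in controls, 1.37 to 1.90 CPM in senescent MEFs, 5.53 to 9.59 CPM at 100 μg/mL and 3.82 to 7.86 CPM at 300 μg/mL, and the 4 epithelial ones to 0 to 2.04 CPM over the samples. Most of the endothelial rise was Tek, with means of 0.36 CPM in controls, 0.48 CPM in senescent MEFs, 5.87 CPM at 100 μg/mL and 4.92 CPM at 300 μg/mL. Tek was called higher at both doses against controls. It was also called higher at 100 μg/mL against senescent MEFs, and in 11 of 25 alternative fits there. Pecam1 and Kdr were not called. The part of these lists in the results was not tested. Of 4 skeletal muscle genes, the regulators Myod1 and Myog had at most 1 count, while the list summed to 104 to 195 CPM in controls, 148 to 359 CPM in senescent MEFs, 91.7 to 148 CPM at 100 μg/mL and 67.8 to 119 CPM at 300 μg/mL, through Des (desmin) and Acta1 (an actin). Acta1 was called lower at both doses against controls (log2 fold change −1.44 and −1.77). The 11 proliferation genes examined fell in senescent MEFs, from 1101 to 1432 CPM in sum in the controls to 79.7 to 140 CPM, and were at 50.3 to 85.7 CPM in the fucoidan groups. The cell cycle inhibitors Cdkn1a and Cdkn2a rose in senescent MEFs, by 1.82 and 2.46 on the log2 scale (adjusted p = 6.8e-05 and 7.24e-05).

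Promoters of 3 members are shown because the results below turn on them: Xrcc6 fell in senescence, Xrcc5 encodes its partner in Ku, and Paxx was higher in fucoidan-treated senescent MEFs than in controls. Each runs from 250 bases before the start of the RefSeq gene to 50 bases after it, 5′ to 3′ on the strand of the gene, in GRCm38.p6. The windows lie at chr15:82016119-82016418 on the plus strand for Xrcc6, chr1:72307171-72307470 on the plus strand for Xrcc5 and chr2:25461045-25461344 on the minus strand for Paxx. Capitals mark matches to E2F (TTTGGCGC or TTTCCCGC), CCAAT and SP1 (GGGCGG) letters in Xrcc6, to NRF1 (GCATGCGC) and CCAAT letters in Xrcc5, and to SP1 letters in Paxx, on either strand.
Xrcc6: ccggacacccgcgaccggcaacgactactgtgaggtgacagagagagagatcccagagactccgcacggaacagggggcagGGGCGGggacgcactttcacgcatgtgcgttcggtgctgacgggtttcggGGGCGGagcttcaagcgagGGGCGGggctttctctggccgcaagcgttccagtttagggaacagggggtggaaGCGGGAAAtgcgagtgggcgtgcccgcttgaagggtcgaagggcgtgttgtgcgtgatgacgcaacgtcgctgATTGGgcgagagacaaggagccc
Xrcc5: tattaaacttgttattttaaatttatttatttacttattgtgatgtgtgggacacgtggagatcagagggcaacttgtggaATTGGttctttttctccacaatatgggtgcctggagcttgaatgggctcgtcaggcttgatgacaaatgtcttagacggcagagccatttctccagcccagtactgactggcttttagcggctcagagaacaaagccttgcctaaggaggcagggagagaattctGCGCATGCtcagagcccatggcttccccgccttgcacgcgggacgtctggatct
Paxx: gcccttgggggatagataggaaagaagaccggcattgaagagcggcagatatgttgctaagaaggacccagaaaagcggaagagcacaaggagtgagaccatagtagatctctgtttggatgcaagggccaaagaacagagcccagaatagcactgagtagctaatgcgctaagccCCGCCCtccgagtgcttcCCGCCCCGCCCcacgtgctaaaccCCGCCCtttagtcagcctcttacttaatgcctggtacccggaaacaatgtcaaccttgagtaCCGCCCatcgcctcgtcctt
The E2F match of Xrcc6 reads GCGGGAAA, on the opposite strand, and starts 46 bases before the start of the gene. These E2F letters stood in 1.56% of all 32851 promoters of this length and in 1 of the 8 NHEJ genes that matched by symbol (Lig4 with 2 entries), Xrcc6. Xrcc5 had the NRF1 letters, which 2 of the 8 held against 2.71% of all promoters. SP1 letters stood in 7 of the 8, all but Xrcc5, against 35.7% of all, and 2 of the matches in Paxx overlap by their last and first base. CCAAT was found in 4 (Xrcc5, Xrcc6, Dclre1c and Polm) against 37.4% of all, and ETS letters (CCGGAAGT) in 2 (Lig4 and Dclre1c) against 3.89%. None of the 8 held the letters of the cell cycle homology region (CHR, TTTGAA), found in 17.9% of all promoters. The cyclic AMP response element (CRE, TGACGTCA) was absent from them as well, against 1.79% of all, and so was the TATAAA box, against 13.6%. Prkdc and Poll had no entry in the table of promoters. A match describes letters and does not show binding.

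Per length, Xrcc6 was the highest member in 11 of 12 samples, with a median of 30.1 TPM (22 to 70.4). In the remaining sample, mouse 5 at 100 μg/mL, Paxx was higher, at 32.7 TPM against 26 TPM. Paxx came next with a median of 19.9 TPM, followed by Xrcc4 at 8.28 TPM, Lig4 at 7.57 TPM and Polm at 6.67 TPM. Xrcc5 was at 3.3 TPM, Dclre1c at 3.09 TPM, Poll at 1.62 TPM, Nhej1 at 1.31 TPM and Prkdc at 0.805 TPM. Neighbours in this order overlapped in their ranges: Lig4 was above Polm in 7 of 12 samples, Xrcc5 above Dclre1c in 7, and Nhej1 above Prkdc in 6. The subunits of Ku, which pair in equal number in the protein, stood far apart: the TPM of Xrcc6 was 3.15 to 13.9 times that of Xrcc5 in 9 libraries and 17.1 to 81.8 times in the other 4.

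Those 4 libraries stood apart in a way that touches some members more than others. RSEM divides reads among transcripts. For each library, every gene's deviation from its mean over all 13 libraries was taken (log2). An index was the median deviation over the 2229 genes with more than 95% of their exonic bases in a single annotated transcript, minus that over genes under 50%. It was −0.92 to −1.41 in the libraries of control mouse 6, control mouse 5(1), senescent mouse 5 and 300 μg/mL mouse 4. This index was −0.30 to 1.09 in the remaining 9. All 3 libraries at 100 μg/mL were among these, at 1.09 for mouse 5, 0.96 for mouse 4 and −0.30 for mouse 6. Those of mouse 5 and mouse 4 were the highest of all 13. The groups were thus not balanced on the index, and its part in differences at this dose was not tested. Xrcc5, Nhej1 and Poll each have 1 annotated transcript, so all of their sequence is of this kind, against 80.9% for Prkdc, 78.1% for Xrcc4, 47.6% for Xrcc6, 21.1% for Dclre1c, 14.8% for Polm, 11.9% for Paxx and 9.49% for Lig4. In each of Xrcc5, Nhej1 and Poll, the 4 libraries held the 4 lowest levels of all 13. Xrcc5 was at 1.31 to 2.28 CPM there and at 4.14 to 10.5 CPM elsewhere. For Prkdc 3 of the 4 were among the lowest, and for Xrcc6 none was. Xrcc6 leaned the other way, with a median of 35.7 CPM in the 4 libraries, which include controls, and 24.5 CPM elsewhere. The part of the index in its level was not tested. The same split ran through a single mouse of the controls. Library 5(2) was above 5(1) by a factor of 5.07 for Xrcc5, 5.29 for Nhej1, 6.14 for Poll and 3.09 for Prkdc. It was below 5(1) for Xrcc6, at 0.849 times its level, and for Xrcc4, at 0.991 times. The cause of the split was not tested, and fits without the 4 libraries are given where they change a result. Such fits have fewer samples: control mouse 6, senescent mouse 5 and 300 μg/mL mouse 4 are absent, and control mouse 5 is library 5(2) alone. Over all genes, edgeR called 1765 in senescence with the 4 libraries and 1156 without them. A call lost there can thus reflect fewer samples as well as the libraries.

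**Figure D1:**
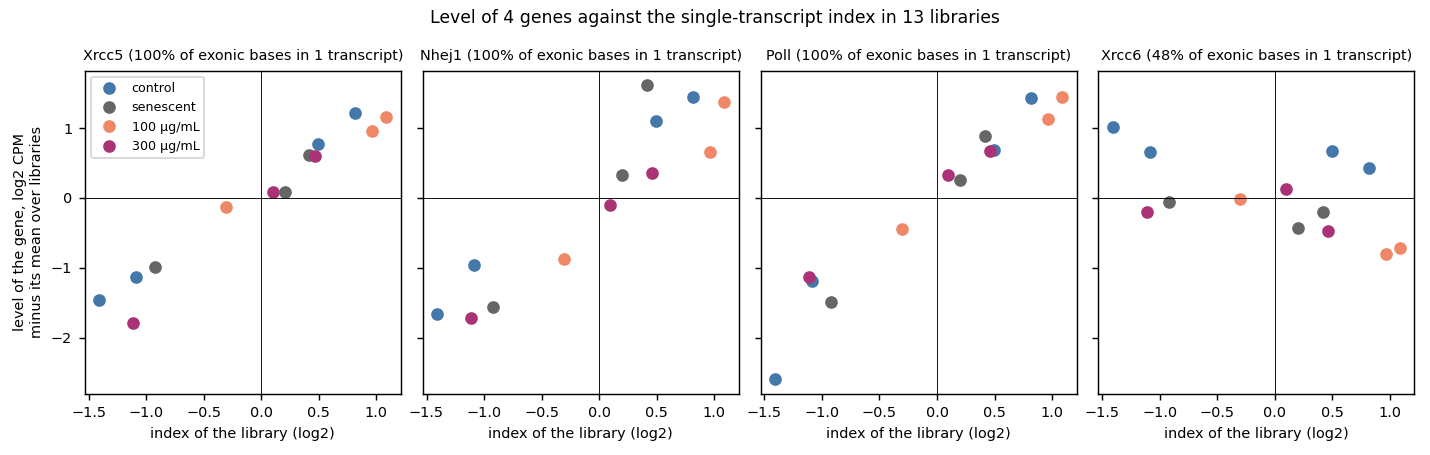
Level of Xrcc5, Nhej1, Poll and Xrcc6 (log2 CPM minus the mean over the libraries, y axis) against the index of each library (x axis, log2: its median deviation over genes of single-transcript sequence minus that over genes of shared sequence), with 1 point per library and colours for the groups. The 4 libraries at the left, from −0.92 down to −1.41, hold the 4 lowest values of Xrcc5, Nhej1 and Poll. Xrcc6 has its 4 control libraries above 0, and its median is higher in the 4 libraries at the left than in the others.

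Xrcc6, on chr15:81871931-81924291 of GRCm39, was the member that changed in senescence. Its level was 44.7, 42.3 and 57 CPM in control mice 4, 5 and 6, and 20.8, 27 and 24.6 CPM in senescent MEFs of the same numbers. Every senescent sample lay below every control sample, and the mean fell from 48 ± 7.87 to 24.2 ± 3.12 CPM (SD, n = 3). The log2 fold change was −0.99 (SE 0.26, 95% CI −1.56 to −0.42, adjusted p = 0.0277), with 3 of 3 mice lower. In bulk RNA, fewer transcripts per cell cannot be told apart from fewer cells that hold them. A change with treatment was not detectable. The level was 16.1, 17.1 and 27.9 CPM in mice 4, 5 and 6 at 100 μg/mL and 24.5, 20.3 and 30.7 CPM at 300 μg/mL, values that lie around the senescent range and under all 3 controls. The lower dose differed from senescent MEFs by −0.25 in log2 (95% CI −0.82 to 0.32, adjusted p = 0.664) and the higher dose by 0.059 (95% CI −0.51 to 0.63, adjusted p = 0.954). Compared with controls, Xrcc6 fell by 1.24 at the lower dose (adjusted p = 0.00399) and by 0.93 at the higher dose (adjusted p = 0.0205), although the call at 300 μg/mL was lost without mouse 4 or 5 of that group (adjusted p of 0.058 and 0.0884), without the 4 libraries (0.151) and on TPM (0.0886). The fall in senescence missed the threshold when senescent mouse 4 was left out (adjusted p = 0.0571), when the control and senescent groups were fitted alone (0.0598) and without the 4 libraries described above (log2 fold change −0.86, adjusted p = 0.12); over 26 alternatives its adjusted p was 0.0027 to 0.12 and its direction did not turn. On the opposite strand, 7.34% of its exonic bases overlap Desi1.

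Xrcc5, the other subunit of Ku (chr1:72346532-72434112), was spread widely within every group. Controls had 7.73, 6.03 and 1.64 CPM in mice 4, 5 and 6, senescent MEFs 4.79, 2.28 and 6.97 CPM, MEFs at 100 μg/mL 8.8, 10.1 and 4.15 CPM and those at 300 μg/mL 1.32, 6.9 and 4.81 CPM. All 4 groups overlapped, and the lowest sample of the controls, the senescent MEFs and the 300 μg/mL group was in each case 1 of the libraries low on single-transcript sequence. The log2 fold change was −0.13 in senescence (95% CI −1.56 to 1.29), 0.71 at 100 μg/mL (95% CI −0.72 to 2.14) and −0.11 at 300 μg/mL (95% CI −1.54 to 1.32), with adjusted p of 0.936, 0.608 and 0.969. The interval in senescence includes a fall as large as that of Xrcc6, and the difference between the subunits was not tested.

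Prkdc, which encodes the catalytic subunit of DNA-PK (chr16:15455698-15660099), had the largest difference of the 10 genes between MEFs at 100 μg/mL and senescent MEFs. It was at 6.1, 3.71 and 2.62 CPM in senescent mice 4, 5 and 6 and at 12.1, 8.97 and 8.72 CPM at 100 μg/mL. Every treated sample was above every senescent sample, as well as above the controls at 5.86, 4.34 and 3.76 CPM. Of all genes tested, 26.2% did not overlap between MEFs at 100 μg/mL and senescent MEFs. The log2 fold change was 1.26 (SE 0.47, 95% CI 0.25 to 2.26, higher in 3 of 3 mice), with an unadjusted p of 0.0181 and an adjusted p of 0.151, so it did not pass the test. DESeq2 gave an adjusted p of 0.0405, and the other 25 alternatives gave 0.0927 to 0.408. With an offset for single-transcript sequence the difference was 0.86 (adjusted p = 0.221). At 300 μg/mL the values were 2.71, 9.0 and 4.85 CPM in mice 4, 5 and 6, of which mouse 5 alone reached the 100 μg/mL range, and the fold change was 0.41 (95% CI −0.58 to 1.41, adjusted p = 0.753). The difference between the doses was −0.84 (95% CI −1.84 to 0.15, adjusted p = 0.97). Against controls, Prkdc at 100 μg/mL differed by 1.09 (95% CI 0.089 to 2.09, adjusted p = 0.1), which was called by DESeq2 (adjusted p = 0.0343) and with the compared groups alone (0.026) and in no other alternative. In senescence, Prkdc differed from controls by −0.17 (95% CI −1.16 to 0.83, adjusted p = 0.879).

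Dclre1c, the gene of the end-trimming nuclease Artemis (chr2:3425164-3465167), did not pass the test in any comparison, with adjusted p of 0.659 in senescence, 0.957 for the lower dose and 0.795 for the higher. The controls were at 3.65, 2.85 and 4.42 CPM in mice 4, 5 and 6 and the senescent MEFs at 8.02, 5.3 and 1.46 CPM. Its senescent values ran lower and higher than those of any other group. Treated MEFs had 3.82, 5.22 and 5.02 CPM at 100 μg/mL and 5.74, 7.36 and 6.22 CPM at 300 μg/mL, and all 3 controls were below the lowest sample at 300 μg/mL. The fold change between those groups was 0.83 (95% CI −0.27 to 1.92, adjusted p = 0.266). Because 46.7% of its exonic bases lie opposite exons of Suv39h2 and which strand the counting used is not given in the sources used here, its count may hold reads of that gene.

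**Figure D2:**
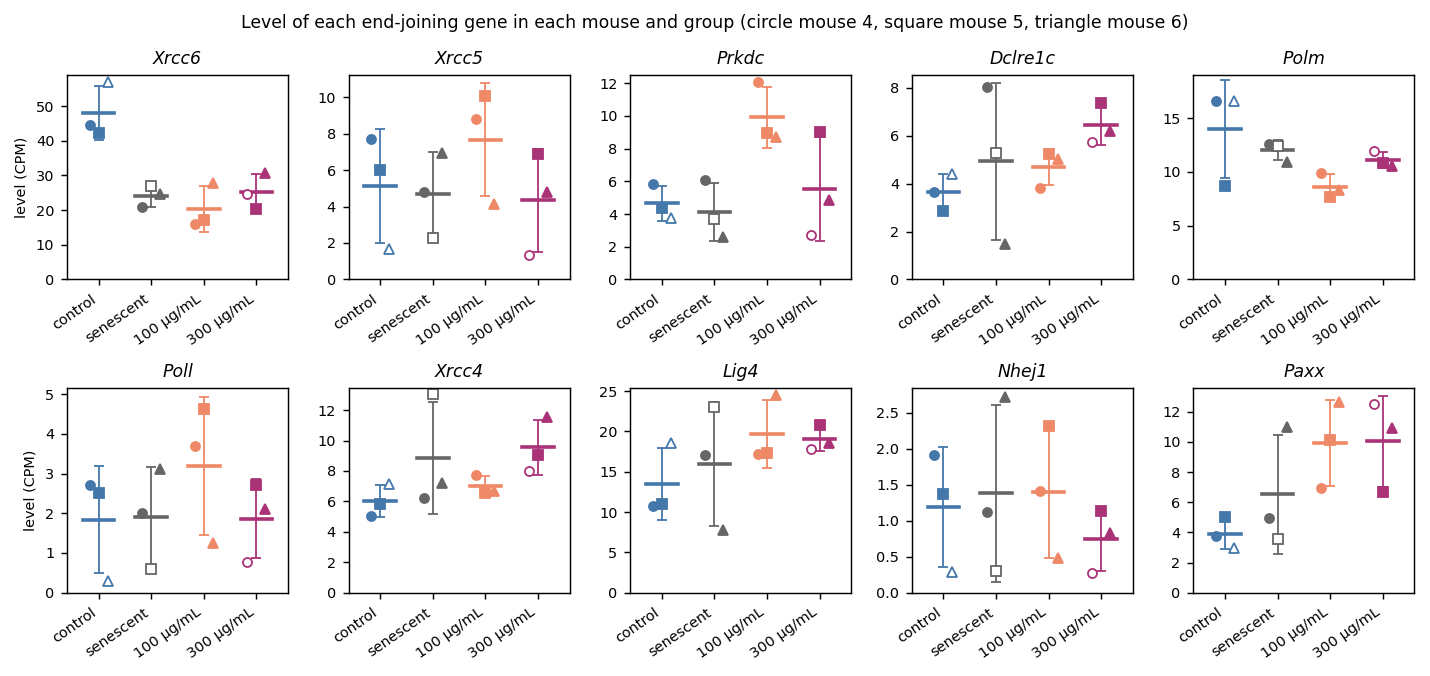
CPM of each gene (y axis, from 0) in mice 4 (circles), 5 (squares) and 6 (triangles) of the 4 groups, with a bar at the mean and whiskers of 1 SD (n = 3). Open symbols are libraries low on single-transcript sequence (library 5(1), also low, is summed into control mouse 5). Xrcc6 separates the controls, at 42.3 to 57.0 CPM, from all other samples, and the 3 samples at 100 μg/mL are the highest for Prkdc apart from mouse 5 at 300 μg/mL.

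The gap-filling polymerases showed no called difference in the 3 main comparisons. Polm (chr11:5777856-5788210) was at 16.6, 8.72 and 16.6 CPM in control mice 4, 5 and 6, at 12.6, 12.5 and 10.9 CPM in senescent MEFs, at 9.89, 7.65 and 8.34 CPM at 100 μg/mL and at 12, 10.8 and 10.6 CPM at 300 μg/mL. At 100 μg/mL all 3 values were under the senescent ones, with a log2 fold change of −0.48 (95% CI −1.11 to 0.16, adjusted p = 0.402). On TPM this difference was 0.093, but the median of all genes was shifted by 0.42 on that scale. Poll (chr19:45540714-45549287) had 2.72, 2.51 and 0.282 CPM in the controls, 2.01, 0.604 and 3.13 CPM in senescent MEFs, 3.69, 4.62 and 1.25 CPM at 100 μg/mL and 0.775, 2.7 and 2.12 CPM at 300 μg/mL, and the groups overlapped throughout. Its lowest value came from 6 reads, in control mouse 6, 1 of the 4 libraries low on single-transcript sequence. The interval of its difference in senescence, −1.74 to 1.85, includes a change of more than 1 in either direction.

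In the ligation complex, Xrcc4 (chr13:89922129-90237754), the scaffold of ligase IV, had 5.06, 5.83 and 7.14 CPM in control mice 4, 5 and 6 and 6.23, 13.1 and 7.24 CPM in senescent MEFs. It was higher in 3 of 3 senescent mice, by 0.56 in log2 (95% CI −0.19 to 1.3, adjusted p = 0.352), which did not pass the test. The difference was 1.16 in mouse 5, 0.30 in mouse 4 and 0.019 in mouse 6. Treated MEFs had 7.76, 6.55 and 6.68 CPM at 100 μg/mL and 8.03, 9.07 and 11.6 CPM at 300 μg/mL, and the 3 values at 300 μg/mL were above all controls (log2 fold change 0.67, adjusted p = 0.182). Lig4 (chr8:10019049-10027686), the ligase itself, was at 10.8, 11 and 18.6 CPM in the controls, 17.1, 23.1 and 7.81 CPM in senescent MEFs, 17.2, 17.3 and 24.6 CPM at 100 μg/mL and 17.8, 20.7 and 18.6 CPM at 300 μg/mL. Senescent mouse 6 was the lowest of all 12 samples and senescent mouse 5 the second highest, and no comparison was called (adjusted p of 0.744, 0.706 and 0.818 in the 3 main comparisons).

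Nhej1 (chr1:75004985-75101899), which encodes the filament-forming factor XLF, was a low gene with 6 to 80 reads per sample. Its level was 1.91, 1.37 and 0.282 CPM in control mice 4, 5 and 6, 1.12, 0.302 and 2.72 CPM in senescent MEFs, 1.41, 2.31 and 0.484 CPM at 100 μg/mL and 0.271, 1.14 and 0.83 CPM at 300 μg/mL. All 4 groups overlapped, and no comparison was called (adjusted p of 0.929, 0.993 and 0.737 in the 3 main comparisons). Its intervals were the widest of the 10 genes, from −1.80 to 2.22 in senescence to −2.92 to 1.15 at 300 μg/mL.

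Paxx (chr2:25345130-25352657), which encodes a Ku-binding paralog of XRCC4 and XLF, stepped away from the controls. It was at 3.74, 5.03 and 2.96 CPM in control mice 4, 5 and 6, 4.95, 3.58 and 11 CPM in senescent MEFs, 6.95, 10.1 and 12.7 CPM at 100 μg/mL and 12.5, 6.65 and 10.9 CPM at 300 μg/mL. All 6 treated samples were above all 3 controls, and senescent mouse 6 was within the treated range. The share of all genes separated from controls in this way was not counted. Of all genes tested, 26.6% were called against controls at 100 μg/mL and 24.4% at 300 μg/mL. Paxx rose against controls by 1.34 in the 100 μg/mL group (SE 0.45, adjusted p = 0.043). It rose by 1.35 in the 300 μg/mL group (SE 0.45, adjusted p = 0.044), a comparison that shares the control samples. These calls were near the threshold: 17 of 26 alternatives kept the first and 14 of 26 the second, with the mouse as a block their adjusted p were 0.0686 and 0.0691, and the highest were 0.129 without mouse 6 at 100 μg/mL and 0.126 without mouse 4 at 300 μg/mL. The first was also lost without control mouse 4 or 6, without mouse 4 or 5 at 100 μg/mL or without mouse 6 at 300 μg/mL, and the second without control mouse 4 or 6, without any mouse at 100 μg/mL or without mouse 6 at 300 μg/mL. Without the 4 libraries low on single-transcript sequence the second was lost (log2 fold change 1.22, adjusted p = 0.0812) and the first was kept. Senescence and treatment taken singly gave smaller differences, which were not called, 0.73 in senescence (adjusted p = 0.345), 0.60 for the lower dose (adjusted p = 0.497) and 0.62 for the higher (adjusted p = 0.573). Opposite exons of the gene model Gm74786 cover 21.2% of its exonic bases.

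**Figure D3:**
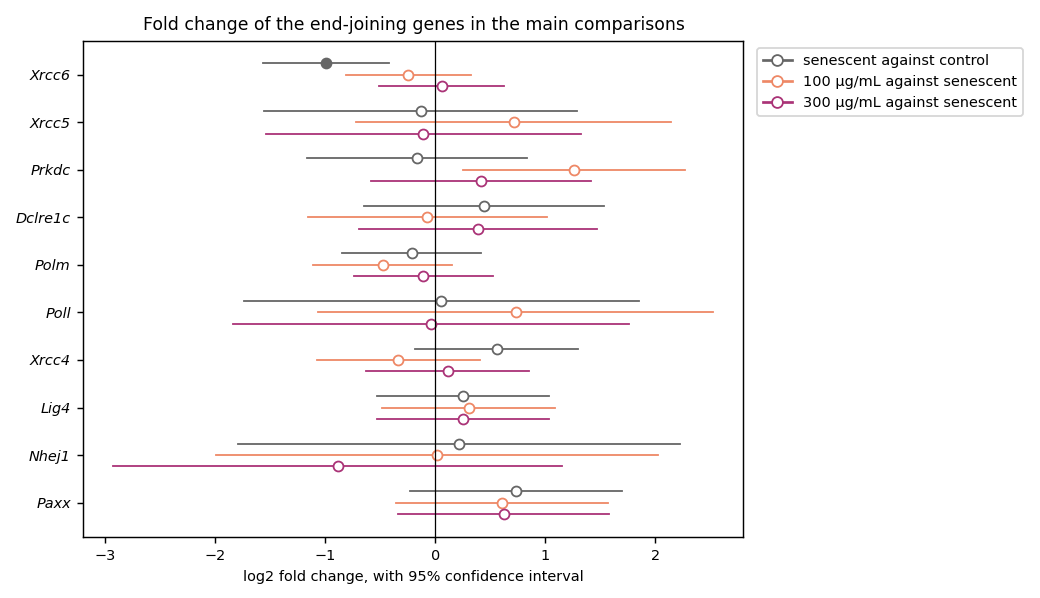
Log2 fold change (x axis, points) with 95% confidence intervals (lines) of the 10 genes in senescent against control MEFs and at each dose against senescent MEFs. A filled point passed the test at an adjusted p under 0.05, which only Xrcc6 in senescence did, at −0.99; the intervals of Xrcc5, Poll and Nhej1, the members with 1 transcript, are the widest.

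Counted over the list, 1 of 10 NHEJ genes was called in senescent against control MEFs, where 11.7% of all genes tested were called, with 1 at an unadjusted p under 0.05 (25.4% of all genes) and 1 called by DESeq2 (18.4% of the same genes), Xrcc6 throughout. None of the 10 was a DEG there, against 8.42% of all genes, since Xrcc6 fell by just under 1. At 100 μg/mL against senescent MEFs 0 of 10 were called by edgeR (4.02% of all genes; DEGs 0 of 10, against 2.69%), with 1 at an unadjusted p under 0.05 (19.8% of all genes) and 1 called by DESeq2 (9.25% of the same genes), in both cases Prkdc. At 300 μg/mL 0 of 10 were called by edgeR (1.90% of all genes; DEGs 0 of 10, against 1.64%), with 0 at an unadjusted p under 0.05 (15.3%) and 0 called by DESeq2 (6.51%). Values did not overlap between groups for 1 of 10 genes in senescence (27.1% of all genes), 2 of 10 at 100 μg/mL (26.2%) and 0 of 10 at 300 μg/mL (19.6%). Overlap was not counted over all genes for treated MEFs against controls. The separations from controls described above for single genes therefore lack such a share. Against controls, 2 of 10 genes were called at 100 μg/mL (26.6% of all genes), both DEGs (19.7%), and 2 of 10 at 300 μg/mL (24.4%), of which 1, Paxx, was a DEG (18.0%). In the same comparisons 4 and 2 genes had an unadjusted p under 0.05 (38.6% and 36.3% of all genes), and DESeq2 called 3 and 2 (33.9% and 31.3%). Between 300 and 100 μg/mL 0 of 10 were called by edgeR (0.00665% of all genes), with 0 at an unadjusted p under 0.05 (0.625%) and 0 called by DESeq2 (0.00665%). The median log2 fold change of the 10 genes was 0.13 in senescence, 0.16 at 100 μg/mL and 0.086 at 300 μg/mL, beside 0.072, −0.019 and 0.00027 over all genes tested. The share of NHEJ genes was above that of all genes in 3 of these counts and below it in the others. The 3 were the DEGs at 100 μg/mL against controls, at 20% against 19.7%, the genes at an unadjusted p under 0.05 there, at 40% against 38.6%, and the DESeq2 calls at 100 μg/mL against senescent MEFs, at 10% against 9.25%. Each gene is 10% of the list, and the counts reuse the same genes and samples. They do not show that the list departs from all genes, which was not tested.

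**Figure D4:**
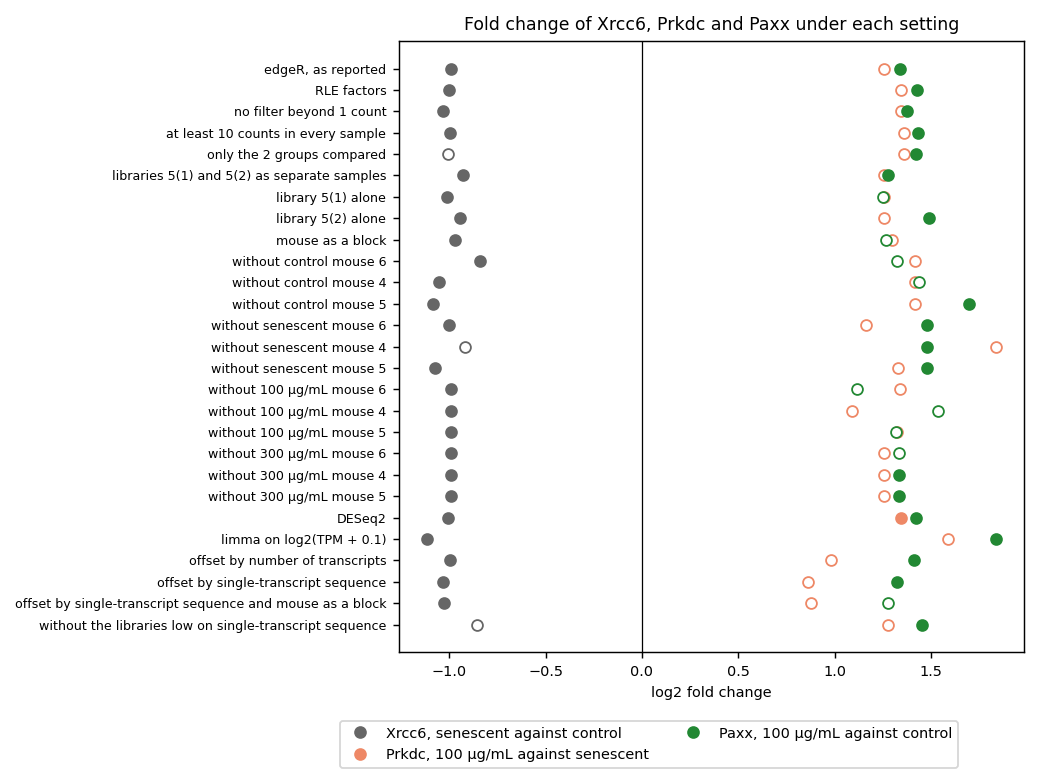
Log2 fold change (x axis) of Xrcc6 in senescence, Prkdc at 100 μg/mL against senescent MEFs and Paxx at 100 μg/mL against controls, under the test as reported (top) and each alternative (y axis). Filled points have an adjusted p under 0.05: Xrcc6 stays between −1.11 and −0.84 and Paxx between 1.12 and 1.84, with some open points, and Prkdc is filled under DESeq2 alone.

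Several NHEJ genes share their start region with a gene on the opposite strand. Within 1000 bases of the start, Prkdc has Mcm4 (434 bases apart), a subunit of the replicative helicase, and Dclre1c has Meig1 (143 bases apart). Xrcc4 overlaps Tmem167 by 512 bases at the start, Lig4 overlaps Abhd13 by 437 bases and Poll overlaps Dpcd by 297 bases. Exons of Tmem167 and Dpcd cover 4.19% and 4.10% of the exonic bases of Xrcc4 and Poll. The partner of Prkdc fell in senescence while Prkdc did not pass the test. Mcm4 went from 53.9, 27.7 and 16.4 CPM in control mice 4, 5 and 6 to 6.33, 2.76 and 5.54 CPM, a log2 fold change of −2.74 (adjusted p = 0.00707), against −0.17 for Prkdc. The difference between the 2 genes was not tested. At 100 μg/mL Mcm4 differed from senescent MEFs by 0.63 (adjusted p = 0.569). Tmem167, Abhd13 and Dpcd differed by 0.05, −0.17 and 0.37 in senescence and were not called in any of the 3 main comparisons, and Meig1, with at most 1 count in a library, was not tested. The call of Mcm4 in senescence was lost without control mouse 4 (adjusted p = 0.0506) and kept in the other 25 of 26 alternatives.

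Related factors were examined as lists beside the 10 genes. Among 11 accessory NHEJ factors, 10 were tested and 0 were called by edgeR in any of the 3 main comparisons (unadjusted p under 0.05 for 0 in senescence, 1 at 100 μg/mL and 0 at 300 μg/mL), with median fold changes of 0.053 in senescence, −0.15 at 100 μg/mL and 0.093 at 300 μg/mL. DESeq2 called 0 of them in each comparison. Sirt6, a deacylase and mono-ADP-ribosyltransferase that acts at breaks, was at 13, 13.9 and 9.82 CPM in control mice 4, 5 and 6, 9.01, 10.3 and 13.6 CPM in senescent MEFs, 10.5, 11.1 and 8.17 CPM at 100 μg/mL and 9.81, 11.1 and 9.87 CPM at 300 μg/mL. Its fold changes were −0.16, −0.15 and −0.095 (adjusted p of 0.797, 0.824 and 0.921). The template-independent polymerase gene Dntt had at most 1 count in a library.

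The 53BP1-shieldin axis protects ends from resection and so favours NHEJ. It was listed together with break sensing genes and the resection factor gene Rbbp8, so the list does not describe end protection alone. Of its 17 genes, 3 were called in senescence, all lower, where 11.7% of all genes were called, with a median over the list of −0.43. They were Mre11a, the nuclease of the MRN sensor (log2 fold change −1.13, adjusted p = 0.00502), Paxip1, the 53BP1 partner PTIP (−1.38, 0.0114), and Rbbp8, which encodes CtIP (−1.13, 0.0118). Without the 4 libraries low on single-transcript sequence the adjusted p were 0.0526 for Mre11a, 0.011 for Paxip1 and 0.194 for Rbbp8. Paxip1 lost its call when mouse 4 was dropped from the controls (adjusted p = 0.0715) or from the senescent group (0.0552). Atm and Trp53bp1 were not called, with fold changes of −0.86 (adjusted p = 0.424) and 0.18 (adjusted p = 0.746) in senescence and 0.73 and 0.087 at 100 μg/mL. At 100 μg/mL 1 gene of the list was called by edgeR (4.02% of all genes), Dynll1, a dynein light chain that binds 53BP1, which fell by 1.02 (adjusted p = 0.0248). It was called in 16 of 26 alternatives, and lost without control mouse 4 or 5, senescent mouse 5 or 6 or any mouse at 100 μg/mL, with a difference of −0.55 without senescent mouse 6 and an adjusted p of up to 0.148. DESeq2 called 1 gene lower and 1 higher at this dose, the higher being Rad50, another subunit of MRN (log2 fold change 0.71, adjusted p = 0.034), for which edgeR gave 0.62 (adjusted p = 0.169). At 300 μg/mL 0 were called by edgeR, with 1 at an unadjusted p under 0.05 and 1 called by DESeq2.

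The 5 genes of polymerase theta end joining, a route that uses short homologies, were all lower in senescence with a median of −1.63, and 3 were called, beside 11.7% of all genes. Polq, the polymerase, fell by 2.75 (adjusted p = 0.00693), the flap nuclease gene Fen1 fell by 2.27 (adjusted p = 3.74e-05) and Lig3, the ligase, fell by 0.86 (adjusted p = 0.0369). Polq was at 15.6, 13.9 and 15.7 CPM in control mice 4, 5 and 6 and 2.65, 3.41 and 0.68 CPM in senescent MEFs. Calls of Polq and Fen1 held in all 26 alternatives and that of Lig3 in 14, with an adjusted p of 0.0868 without the 4 libraries. Lig3 was also lost without any control mouse, senescent mouse 5 or 6, mouse 4 or 5 at 100 μg/mL or mouse 5 at 300 μg/mL, at 0.0529 to 0.0794. In senescence DESeq2 called 4 of the 5 lower (18.4% of all genes), adding Parp1 (log2 fold change −1.62, DESeq2 adjusted p = 0.0224). Parp1 was not called by edgeR as reported, and was called in 4 of 26 alternatives. At 100 and 300 μg/mL 0 of the 5 were called by edgeR, with 1 at an unadjusted p under 0.05 at each dose and 1 and 0 called by DESeq2. The proliferation markers given above, all 11 of which were called lower in senescence with a median of −3.76, moved with these genes and with Xrcc6, and their part in the differences was not tested.

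**Figure D5:**
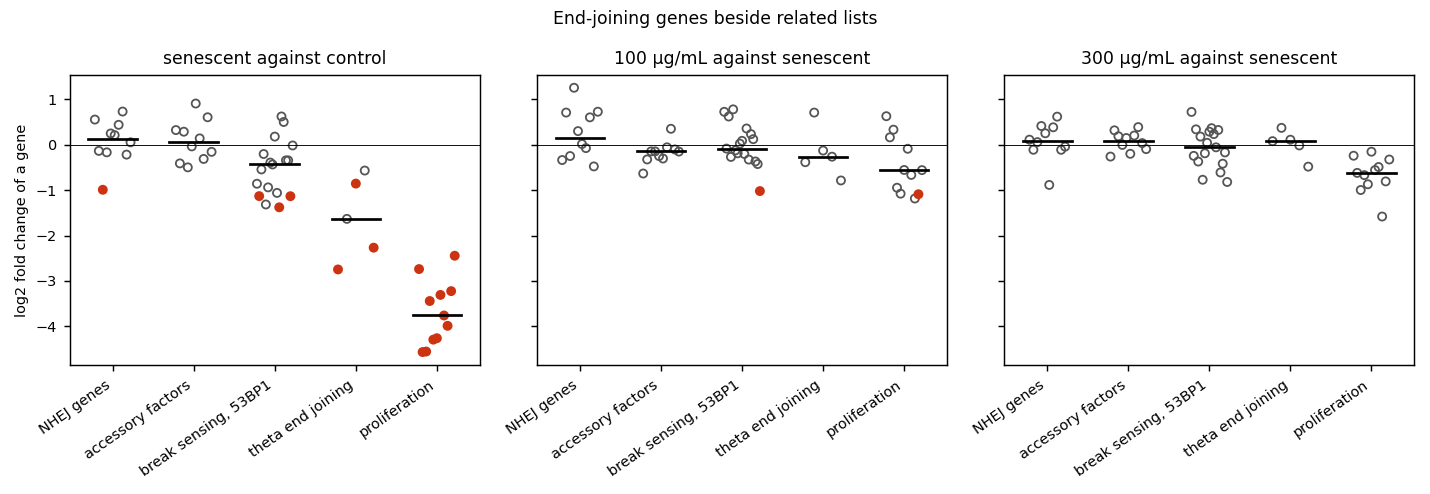
Log2 fold change (y axis) of each gene of the NHEJ list, the accessory factors, break sensing and 53BP1, polymerase theta end joining and proliferation, in the 3 main comparisons. Filled red points have an adjusted p under 0.05 and bars are medians: in senescence the median was 0.13 for the NHEJ genes, −1.63 for polymerase theta end joining and −3.76 for proliferation.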

How the data were processed

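Per the labels and the methods, total RNA was extracted with Trizol and sequenced from TruSeq Stranded Total RNA libraries. Per the submitters' processing notes, the authors used FastQC 0.12.1, Trimmomatic, STAR 2.7.11b and RSEM 1.3.1 with GRCm39. The deposited expected counts per gene are RSEM's estimates, without normalization, and the deposited TPM values were scaled by RSEM for length and depth. Which strand the counting used is not given in the sources used here. Dividing reads among transcripts can move the counts of genes that share sequence.

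Expected counts were rounded. For control mouse 5, the counts of libraries 5(1) and 5(2) were summed and their TPM values averaged. Genes were kept by filterByExpr (minimum count 10, total 15). The tests were those of edgeR 4.0.16 in R 4.3.3 (quasi-likelihood, TMM, 1 fit over 4 groups, Benjamini-Hochberg adjustment in each of 6 comparisons), on simulated data first. Gene positions come from GENCODE, and promoters from RefSeq. Library totals were 22782536 to 31278750 counts, and low counts carry counting error besides the spread between samples. The alternatives were RLE factors, DESeq2 1.42.0, other filters, the compared groups alone, the libraries of control mouse 5 apart or alone, a block for the mouse, every mouse dropped in turn, limma 3.58.1 on log2(TPM + 0.1), an offset by number of transcripts and the DEG threshold. An offset by single-transcript sequence, with and without the block, and a fit without 4 libraries were chosen after seeing the data. The members, the gene lists, the motifs and the rule for naming genes (all members, genes in the lists of related factors called in a main comparison, Sirt6, Atm, Trp53bp1 and head-to-head neighbours) were chosen with earlier results of these data known. Mcm4, as a neighbour, is also in the proliferation list. The labels give mice 4, 5 and 6 in every group, so the mouse was tried as a block, whereas the reported p-values come from the fit without it; deviations of same-numbered samples correlated at −0.20 to 0.43 over 18 pairs (median −0.0063), with 8 over 0.1. In control libraries, the chi-square per gene was 146 between 5(1) and 5(2) and 53.2 to 154 between other pairs, so no library was a copy.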

Additional observations from a re-analysis of the deposited data

How the results depend on the processing

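In senescence the count of NHEJ genes called went from 1 to 0 when only the compared groups were fitted, without the 4 libraries low on single-transcript sequence and under the DEG threshold, and was 0 to 1 with a mouse left out. At 100 μg/mL it went from 0 to 1 under DESeq2, and at 300 μg/mL and between the doses it was 0 throughout. Against controls the count of 2 at 100 μg/mL became 1 with library 5(1) alone, with the mouse as a block and with the offset by single-transcript sequence and block, rose to 3 under DESeq2 and with the compared groups alone, both through Prkdc, and was 1 to 2 with a mouse left out. The count of 2 at 300 μg/mL became 1 with library 5(1) alone, with the block, on TPM, with the offset by single-transcript sequence with or without the block and under the DEG threshold. It became 0 without the 4 libraries and was 0 to 2 with a mouse left out. The 0 came without mouse 4 at 300 μg/mL, where the calls of Xrcc6 and Paxx were both lost.

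The block changed no other call of the members. On TPM the median of all genes shifted by 0.42 at 100 μg/mL and 0.30 at 300 μg/mL against senescent MEFs, so signs on that scale are relative to it. Of 34 gene values, 14 kept their sign under all alternatives and 20 changed it at least once, all of them uncalled. Causes were not tested.

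Xrcc5 in senescence was −0.13, but 0.30 with library 5(1) alone, 0.0039 with the block and −0.54 to 0.28 with a mouse left out. Prkdc in senescence was −0.17, but 0.076 with library 5(1) alone and −0.58 to 0.096 with a mouse left out. Lig4 in senescence was 0.25, but −0.055 offset by transcripts and −0.092 to 0.58 with a mouse left out. Nhej1 in senescence was 0.21, but −0.15 with 5(2) alone, −0.17 without the 4 libraries and −0.70 to 0.71 with a mouse left out. Dclre1c in senescence was 0.44, but −0.13 to 0.89 with a mouse left out. Poll in senescence was 0.054, but −0.11 with both libraries apart, −0.39 with 5(2) alone, −0.027 offset by transcripts, −0.027 offset by single sequence, −0.50 without the 4 libraries and −0.45 to 0.49 with a mouse left out. Xrcc4 at 100 μg/mL was −0.34, but 0.29 on TPM, 0.15 without the 4 libraries and −0.42 to 0.21 with a mouse left out. Xrcc6 at 100 μg/mL was −0.25, but 0.29 on TPM. Nhej1 at 100 μg/mL was 0.017, but −0.16 with the block, −0.44 offset by transcripts, −0.44 offset by single sequence, −0.44 offset by single sequence and block, −0.34 without the 4 libraries and −0.54 to 1.15 with a mouse left out. Dclre1c at 100 μg/mL was −0.073, but 0.013 with RLE factors, 0.0057 without the filter, 0.030 with the strict filter, 0.023 with the compared groups alone, 0.011 with the block, 0.010 under DESeq2, 0.026 on TPM, 0.051 offset by transcripts, 0.087 offset by single sequence, 0.19 offset by single sequence and block, 0.065 without the 4 libraries and −0.37 to 0.65 with a mouse left out. Polm at 100 μg/mL was −0.48, but 0.093 on TPM. Xrcc4 at 300 μg/mL was 0.11, but −0.047 to 0.55 with a mouse left out. Xrcc5 at 300 μg/mL was −0.11, but 0.046 on TPM, 0.029 without the 4 libraries and −0.61 to 0.36 with a mouse left out. Xrcc6 at 300 μg/mL was 0.059, but −0.11 to 0.19 with a mouse left out. Prkdc at 300 μg/mL was 0.41, but −0.13 to 0.91 with a mouse left out. Lig4 at 300 μg/mL was 0.25, but −0.019 to 0.65 with a mouse left out. Nhej1 at 300 μg/mL was −0.89, but −1.32 to 0.12 with a mouse left out. Dclre1c at 300 μg/mL was 0.39, but −0.0017 to 1.02 with a mouse left out. Polm at 300 μg/mL was −0.11, but 0.24 on TPM and −0.17 to 0.0026 with a mouse left out. Poll at 300 μg/mL was −0.041, but 0.34 on TPM, 0.080 offset by transcripts, 0.076 offset by single sequence, 0.045 offset by single sequence and block and −0.41 to 0.56 with a mouse left out. Low counts limit Nhej1 and Poll, which the strict filter removed.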

Other observations

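Related lists were also compared between fucoidan-treated senescent MEFs and controls, where the treated cells differ from the controls in both senescence and treatment. Of 17 genes of break sensing and the 53BP1-shieldin axis, 5 were called lower at 100 μg/mL and 4 at 300 μg/mL, and none higher by edgeR, with medians of −0.53 and −0.69, where 26.6% and 24.4% of all genes were called, so that these counts are near the share of all genes. Of the 5 genes of polymerase theta end joining, 4 and 3 were called lower, with medians of −0.98 and −1.26. Among the 10 accessory NHEJ factors tested, 0 were called by edgeR at either dose (unadjusted p under 0.05 for 2 at 100 μg/mL and 0 for the higher dose). DESeq2 called 0 at either dose. The medians of all genes tested were 0.087 and 0.065. These comparisons share the control samples with each other and with senescent against control MEFs.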
